A study of Mus musculus with 6 samples.

Results

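The miR-344 family is a set of rodent miRNAs encoded in a cluster on mouse chromosome 7. It was followed here through the 3p arms of its precursors in 6 small RNA-seq libraries. The members were the 8 rows of the count files named mmu-miR-344-3p, mmu-miR-344b-3p, mmu-miR-344c-3p, mmu-miR-344d-3p, mmu-miR-344e-3p, mmu-miR-344f-3p, mmu-miR-344g-3p and mmu-miR-344h-3p, out of 1915 mature miRNAs listed, and all 8 were found. The libraries were made from whole brain of wild-type C57BL/6 embryos at E15.5. There were 3 female and 3 male libraries, and each library pooled RNA from 2 to 3 embryos whose sex had been read from the gonads. Pools, not embryos, are therefore the replicates, and p-values measure the spread between these pools. The sexes were compared with no further treatment or genotype.

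A miRNA precursor is a hairpin cut into a pair of short strands, the 5p and the 3p arm. Usually one of them is kept as the guide strand in an Argonaute protein, and the other is degraded. The guide finds its target mRNAs mainly by pairing through the seed, bases 2 to 8 of the mature sequence, so that family members with different seeds are expected to have different targets. Clusters of related hairpins usually arise by tandem duplication, and their copies carry related but not always identical arms.

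The mature sequences show how far the members have diverged. All 8 names were matched in the RefSeq table, whose build is GRCm38.p6, and each sequence is written 5′ to 3′ with the seed in capitals.
miR-344-3p: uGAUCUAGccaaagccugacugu
miR-344c-3p: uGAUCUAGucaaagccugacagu
miR-344d-3p: gAUAUAACcacugccagacuga
miR-344e-3p: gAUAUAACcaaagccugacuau
miR-344h-3p: gGUAUAACcaaagcccgacugu
miR-344b-3p: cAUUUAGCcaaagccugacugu
miR-344f-3p: cUCUAGCCaggaccugacuac
miR-344g-3p: cAGGCUCUagccaggggcuuga

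The 8 arms carried 6 distinct seeds. miR-344-3p and miR-344c-3p shared the seed GAUCUAG, which no mature miRNA outside the family held among the 1679 in the RefSeq table. miR-344d-3p and miR-344e-3p shared the seed AUAUAAC, which was also the seed of miR-410-3p, a miRNA of the imprinted Dlk1-Dio3 region. The other 4 members each had a seed of their own within the family, and that of miR-344g-3p was shared with miR-7070-3p. More of the likeness lay behind the seed. The 11 letters CAAAGCCUGAC stood in 4 members (miR-344-3p, miR-344b-3p, miR-344c-3p and miR-344e-3p) and in no other mature miRNA, which is 0.238% of those in the table. The shorter CAAAGCC was also in miR-344h-3p and was held by 7 mature miRNAs in all (0.417%). Counted as single-letter substitutions, insertions and deletions, miR-344c-3p was 2 steps from miR-344-3p, miR-344b-3p was 3 steps from it, and miR-344h-3p was 3 steps from miR-344e-3p. miR-344g-3p was the most distant member, 11 to 14 steps from each of the others.

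The hairpins were placed on mm9, the assembly the submitters used, by exact match. All 13 precursors in the RefSeq table lay on the minus strand of chromosome 7, from 68828010 to 69230196, a span of 402187 bases. In GENCODE vM1 most of them were outside any longer gene. Mir344-2 (69084913 to 69084992) lay in an intron of the lincRNA A330076H08Rik, and Mir344g (69127175 to 69127245) overlapped an exon of it on the same strand. No RefSeq miRNA gene of another family was within 1000000 bases. GENCODE held 23 miRNA genes in that window, of which 10 overlapped no RefSeq precursor and are not described here. The paternally expressed imprinted genes Ndn, Magel2, Mkrn3 and Peg12 lay past Mir344i, the last precursor by coordinate. Ndn began 262966 bases beyond it and Peg12 376560 bases. Several members cannot be assigned to a single precursor. The mature sequence of miR-344-3p was identical in Mir344 (69022656 to 69022750) and Mir344-2, that of miR-344h-3p was identical in Mir344h-1 and Mir344h-2, and that of miR-344d-3p was identical in 3 precursors. In mm9 the miR-344d-3p sequence had 5 exact matches, all on chromosome 7. Of these, 2 were in none of the RefSeq precursors, at 68851484 to 68851505 and at 68826408 to 68826429, the latter before the first precursor. These 2 positions were not compared with the 10 other GENCODE miRNA genes. No mature 3p arm matched any other chromosome.

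**Figure D1:**
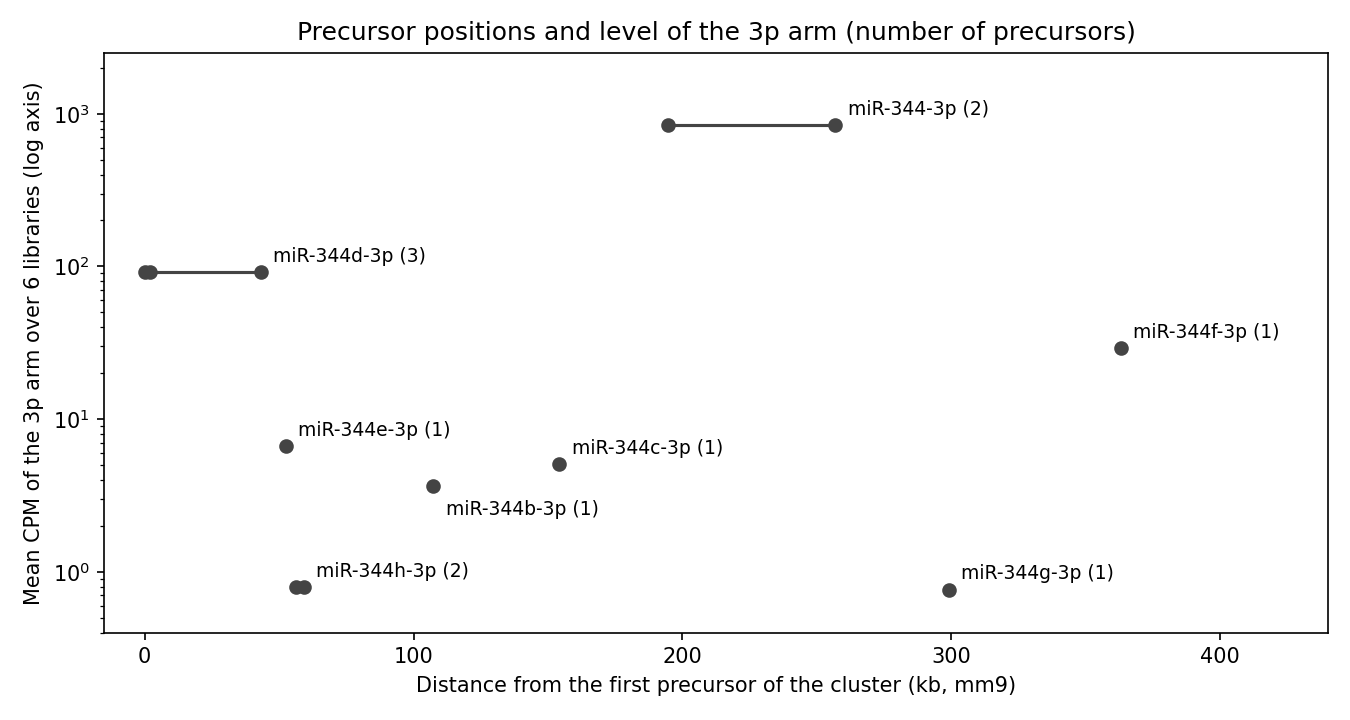
Distance of each precursor from the first precursor of the cluster (x axis, kb on mm9) against the mean level of the 3p arm it encodes (y axis, CPM over 6 libraries, log axis). Points joined by a line share one mature sequence and one measured level, and the number in parentheses counts the precursors. miR-344-3p, encoded near the middle, stood at 839.3 CPM and miR-344g-3p, from a neighbouring hairpin, at 0.764 CPM.

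The number of reads on miRNAs ranged from 14802675 to 59362011 per library. Levels are given as CPM, counts scaled to a library total of 1000000 reads. Adaptor ligation can favour some sequences over others, so levels of different miRNAs are only roughly comparable. Female library 2 stood apart. It had the highest total but the fewest miRNAs with a read, 660 against 790 to 915 in the other 5. Its 10th percentile of counts above 0 was 137.7 reads, against 11 to 21 in the others. Brain miRNAs were abundant in every library, with miR-9-5p, miR-124-3p, miR-128-3p and miR-137-3p summing to 193179 to 211882 CPM in females and 162404 to 187906 CPM in males, and 3 of the 4 were higher in every female library. Lists of other tissues also differed between the sexes. The 3 skeletal muscle miRNAs (miR-206-3p, miR-133a-3p and miR-1a-3p) summed to 388 to 1166 CPM in females and 5452 to 6099 CPM in males. The 3 epithelial ones (miR-200b-3p, miR-205-5p and miR-429-3p) summed to 308 to 828 CPM in females and 6570 to 6789 CPM in males. The 3 mesenchymal ones (miR-199a-5p, miR-214-3p and miR-140-3p) summed to 2091 to 4644 CPM in females and 6929 to 8687 CPM in males. The 3 of hindbrain and spinal cord (miR-10a-5p, miR-10b-5p and miR-196b-5p) went the other way, from 8613 to 12288 CPM in females and from 1659 to 2055 CPM in males. In the muscle, epithelial and mesenchymal lists 3 of 3 markers were higher in every male library, and in the hindbrain list 2 of 3 were higher in every female library, with 1 marker at 0 in at least 1 library. The share of all miRNAs separate between the sexes on CPM was not computed. After the TMM scaling used for the tests below, it was 23.8% of all miRNAs tested. Red blood cell miRNAs (13.5 to 48.2 CPM) and miR-122-5p of liver (4.72 to 16.1 CPM) overlapped between the sexes. The part of these differences in the results for the miR-344 family was not tested. In bulk tissue, fewer cells of a type and less RNA per cell cannot be told apart.

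A single member carried most of the family. Together the 8 arms took 187586 reads, or 976.6 CPM on average, and miR-344-3p held 82.9% to 88.8% of those reads in each library. In females 1, 2 and 3 miR-344-3p stood at 887.7, 727.3 and 1160.2 CPM. In males 1, 2 and 3 it stood at 738.1, 643.7 and 879.0 CPM. Female library 3 was the highest and male library 2 the lowest, and the sexes overlapped. By mean CPM it ranked 107 among the 1915 miRNAs. Its 95% exact binomial intervals were narrow, for example 1149 to 1171 CPM in female library 3, so the spread between libraries was far larger than the counting error. Such intervals cover counting error only, since reads without molecular identifiers are not independent molecules.

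miR-344d-3p, the product of 3 RefSeq precursors, came next at 98.2, 99.7 and 86.4 CPM in the female libraries and 93.6, 88.5 and 81.7 CPM in the male libraries. It was the steadiest member, with a mean of 91.3 ± 7.02 CPM (SD, n = 6). miR-344f-3p was at 19.9, 19.8 and 39.5 CPM in females and 24.7, 32.04 and 38.3 CPM in males. Its high libraries were female 3 and male 3, where miR-344d-3p was lowest. Over the 6 libraries the levels of these 2 members ran in opposite directions (Pearson's r = -0.96 and Spearman's rho = -0.94 on log2(CPM + 1)), a description of 6 points that share their library totals. Among all pairs of members this was the strongest correlation, and Pearson's r of the other pairs ran from -0.87 to 0.75.

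The remaining 5 arms were rare. miR-344e-3p had 165, 383 and 317 reads in the female libraries and 58, 307 and 76 in the male libraries, or 11.1, 6.45 and 8.85 CPM against 3.10, 6.99 and 3.22 CPM. miR-344c-3p had 149, 315 and 285 reads in females and 50, 34 and 85 in males, or 10.1, 5.31 and 7.96 CPM against 2.68, 0.774 and 3.60 CPM. Every female library was above every male library for miR-344c-3p, and male library 2 was the lowest of all. miR-344b-3p was read 27, 0 and 141 times in females and 94, 145 and 183 times in males, or 1.82, 0 and 3.94 CPM against 5.03, 3.30 and 7.74 CPM.

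The zero of miR-344b-3p was in female library 2, the deepest one, where 3 counts would be 0.0505 CPM. Of the 167 miRNAs that the other 5 libraries held at a mean between 1.82 and 7.74 CPM, the range of miR-344b-3p there, 58 were at 0 in female library 2, or 34.7%. In the other libraries, the same share was 2.60% to 7.74%. miR-344h-3p showed the reverse. It had 282 reads, or 4.75 CPM, in female library 2 and none in the other 5, where 3 counts would be 0.0683 to 0.203 CPM. Female library 2 held 8 miRNAs with at least 100 reads that no other library detected, and the other 5 libraries held no such miRNA. This cut is in raw reads, so the deepest library reaches it at the lowest CPM. miR-344g-3p had 14 reads in female library 1, none in female libraries 2 and 3, and 26, 56 and 23 reads in the male libraries, or 0.946 CPM against 1.39, 1.28 and 0.973 CPM.

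**Figure D2:**
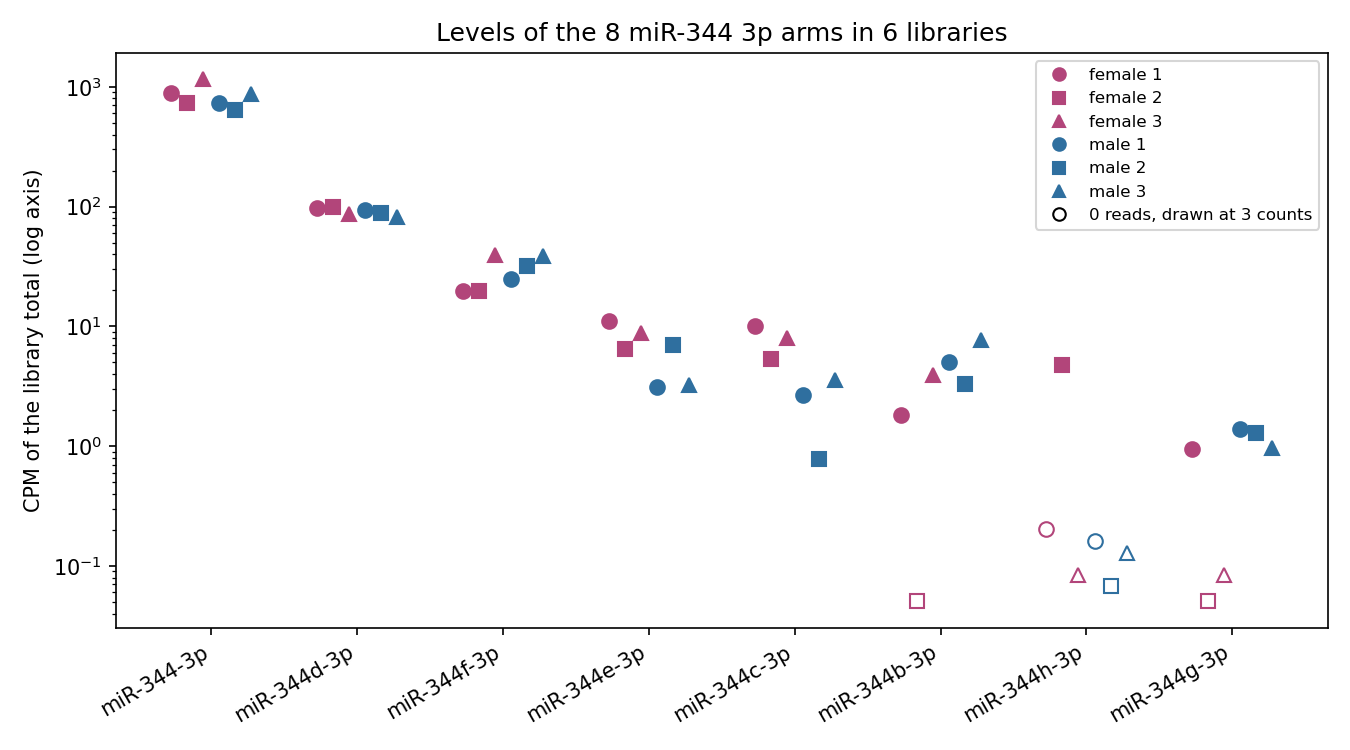
CPM of the library total (y axis, log axis) for the 8 members, ordered by mean level, in each of the 6 libraries. Colours mark the sex, marker shapes the library number, and open symbols are libraries with 0 reads drawn at the level of 3 counts. miR-344-3p stayed between 643.7 and 1160.2 CPM, whereas miR-344h-3p was read in female library 2 alone.

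The order of the first 3 members was the same in each library: miR-344-3p, then miR-344d-3p, then miR-344f-3p. Ranked by mean CPM, miR-344e-3p, miR-344c-3p, miR-344b-3p, miR-344h-3p and miR-344g-3p followed. The mean log2 ratio between neighbours within a library was 3.18 ± 0.35 (SD, n = 6) for miR-344-3p over miR-344d-3p, 1.70 ± 0.56 for miR-344d-3p over miR-344f-3p and 2.21 ± 0.96 for miR-344f-3p over miR-344e-3p. Each of these 3 held in 6 of 6 libraries, with p = 0.0312 in a two-sided exact sign-flip permutation test, the smallest p that 6 libraries can give. The neighbours were set by the mean CPM over these same libraries, so the p-values describe the order and are no independent support for it. Adjusted over the 7 neighbour pairs by Benjamini-Hochberg the value was 0.0729, so none passed 0.05. For miR-344e-3p over miR-344c-3p the ratio was 0.61 ± 1.19 and held in 5 of 6 libraries (exact permutation p = 0.125). The pairs below it had mean ratios within 1 SD of 0, and their exact permutation p lay between 0.156 and 0.562. No order between these neighbours could be read beyond the spread of the libraries. Pairs farther apart were not tested, and miR-344e-3p was above both miR-344g-3p and miR-344h-3p in 6 of 6 libraries.

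No pair of the 8 members had equal counts above 0 in any library. miR-344c-3p and miR-344e-3p, which have different seeds, came near it in most libraries, with a ratio of miR-344e-3p to miR-344c-3p between 0.894 and 1.22 in 5 libraries and of 9.03 in male library 2. Equal counts were found in the 5p arms. miR-344e-5p and miR-344h-5p had the same mature sequence, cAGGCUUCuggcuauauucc, and were both listed with 8 reads in male library 3 and with 0 elsewhere, and these rows cannot be told apart. miR-344c-5p also had 8 reads in that library, with a sequence 7 steps away.

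Grouped by seed, the pair with GAUCUAG stood at 644.5 to 1168 CPM and the pair with AUAUAAC at 84.9 to 109.3 CPM. miR-410-3p, which was added after its values were seen because it has the seed AUAUAAC, was at 614.8 to 1379 CPM, 5.79 to 14.5 times the level of miR-344d-3p and miR-344e-3p together.

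With all libraries added, the 3p arm held most of the reads of every member. For miR-344h this rested on female library 2, the only library with more reads of its 3p arm. In male library 3 miR-344h had no read of the 3p arm and 8 listed for the 5p arm. Reads on the 8 members made up 99.0% to 100% of those on all 19 rows of the family. The other 11 rows, all 5p arms apart from miR-344i, for which no arm is named, had between 0 and 5 rows with a read per library. miR-344b-5p, miR-344d-1-5p, miR-344d-2-5p and miR-344g-5p had no read in any library. Of the reads on both arms, miR-344-3p took 99.8%, miR-344d-3p 99.6% and miR-344e-3p 99.4%, all libraries added. miR-344-5p had 9 reads in female library 3, 240 in male library 2 and none in the other 4 libraries. miR-344d-3-5p was likewise read in those libraries alone, with 19 and 62 reads.

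The arms of miR-344c and miR-344f were less one-sided. miR-344f-5p had 96, 0 and 163 reads in females and 7, 39 and 22 in males, and the 3p arm held from 75.4% of the reads of its precursor in female library 1 to 100% in female library 2. For miR-344c, the females had 749 reads of the 3p arm and 0 of the 5p arm, all female libraries added. Had there been 3 reads of the 5p arm, its share would be 0.401%, which is taken here as the limit. This limit treats the added reads as independent, and it does not measure the spread between libraries. Without female library 2, which had the fewest miRNAs with a read, there were 434 reads of the 3p arm and the limit was 0.691%. The males had 169 reads of the 3p arm and 44 of the 5p arm, or 20.7%. By library the 3p arm held 68.5%, 72.3% and 91.4% in males 1, 2 and 3. miR-344c-5p was thus read in males only, at 1.23, 0.296 and 0.339 CPM, while miR-344c-3p was higher in each female library. The difference of miR-344c-5p between the sexes did not pass the test across all miRNAs (adjusted p = 0.385 in edgeR's quasi-likelihood test).

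The purpose of the study was to find miRNAs that differ between the male and the female embryonic brain. The study's own test used DESeq2, with RUVr to account for batch variation. Here, the quasi-likelihood test of edgeR was run after TMM scaling on 1120 miRNAs that had 10 or more reads in all. Benjamini-Hochberg adjustment covered that whole set. Log2 fold changes are male over female. All 8 members entered the test, miR-344h-3p through 1 library, and none had an adjusted p below 0.05, against 8.48% of all miRNAs tested. Without adjustment 2 of the 8 had a p below 0.05, miR-344-3p and miR-344h-3p, against 18.4% of all. The p of miR-344h-3p rests on reads in female library 2 alone and is not read as a difference between the sexes. DESeq2 also called none of the 7 members to which it gave an adjusted p. Of all 1120 miRNAs it called 11.5%, a share whose base includes miRNAs without an adjusted p. The fitted log2 fold change was positive for 3 members and negative for 5, with a median of -0.33, against -0.02 for all miRNAs tested. The 5 include miR-344h-3p, whose direction likewise rests on 1 library. The balance of directions differed with the scaling. TMM gave 36 miRNAs higher in males and 59 higher in females, whereas library totals gave 50 and 39 and moved the median of all miRNAs to 0.11.

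For miR-344-3p the male over female difference was -0.42 on the log2 scale, with a standard error of 0.20 (edgeR, adjusted p = 0.263). Its mean was 925.1 ± 219 CPM (SD, n = 3) in females and 753.6 ± 118 CPM (SD, n = 3) in males. miR-344c-3p had the larger difference, 7.78 ± 2.38 CPM in females and 2.35 ± 1.44 CPM in males (SD, n = 3). On the log2 scale this was -1.86, with a standard error of 0.97 (edgeR, adjusted p = 0.328). Both calls changed when female library 2 was left out, and both differences were then somewhat larger. Without that library both members passed in edgeR, miR-344-3p at -0.52 (standard error 0.19, adjusted p = 0.0391) and miR-344c-3p at -2.04 (standard error 0.72, adjusted p = 0.0324). In that fit 18.3% of all miRNAs were called, against 8.48% with all libraries, so the change was not particular to these members. In the other 5 fits that each left out a library neither was called, and the adjusted p in edgeR rose to 0.617 for miR-344-3p and 0.678 for miR-344c-3p without male library 2. Without female library 3, the highest one, the difference of miR-344-3p was smaller, at -0.24. The brain, muscle, epithelial, mesenchymal and hindbrain miRNAs above differed between the same libraries, and their part in these differences was not tested.

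The other members had smaller differences relative to their error, apart from miR-344h-3p. On the log2 scale miR-344e-3p was at -1.06 (standard error 0.80), miR-344d-3p at -0.24 (0.25), miR-344f-3p at 0.16 (0.39), miR-344b-3p at 1.39 (1.38) and miR-344g-3p at 1.90 (2.85). Their adjusted p in edgeR's test lay between 0.480 and 0.874. Single libraries moved the rarest of them far. miR-344b-3p was at 0.80 without female library 2 and at 2.51 without female library 3. miR-344g-3p was at 1.32 without female library 3, and without female library 1 all its female counts were 0, so that the fitted 8.40 is no bound. miR-344e-3p was at -1.65 without male library 2. For miR-344b-3p, 1 RUVr factor, a correction for unwanted variation that the study's methods name, raised the log2 fold change to 2.96 in DESeq2 (standard error 0.96, adjusted p = 0.0118). That fit paired the tools named in the study's methods, whose number of RUVr factors is not given in the sources used here. In that fit 20.2% of all miRNAs were called, with those without an adjusted p in the base, and the median log2 fold change of all was 0.25. In edgeR with the same factor, where 13.1% of all miRNAs were called, its adjusted p was 0.0527. No fold change is given for miR-344h-3p, whose reads all came from female library 2.

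After TMM scaling, the ranges of the sexes were separate in 3 of the 8 members, against 23.8% of all miRNAs tested. These were miR-344c-3p and miR-344e-3p, higher in females, and miR-344g-3p, higher in males. For miR-344e-3p the gap was slight, 7.30 in female library 2 over 7.25 in male library 2, and on CPM of the library total it overlapped. For miR-344g-3p the gap was as small, 0.937 in female library 1 under 0.940 in male library 3.

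A comparison within a library does not depend on its total, but it depends on the member it is set against. The mean of miR-344-3p was lower in males (753.6 against 925.1 CPM), which raises the male values of this measure. Per 1000 reads of miR-344-3p, miR-344c-3p, which has the same seed, was read 11.3, 7.30 and 6.86 times in females and 3.63, 1.203 and 4.09 times in males, so that the sexes did not overlap. The sexes were separate in the other direction for miR-344b-3p, at 2.05, 0 and 3.39 in females and 6.82, 5.13 and 8.81 in males. On CPM of the library total miR-344b-3p overlapped, with female library 3 at 3.94 above male library 2 at 3.30. miR-344g-3p was also higher in males by this measure, at 1.07, 0 and 0 in females and 1.89, 1.98 and 1.11 in males. In all, 3 of the 7 other members were separate, against 21.4% of all miRNAs tested. Female library 2 held the only 0 of miR-344b-3p and a 0 of miR-344g-3p. By the same measure miR-344f-3p was read 22.5, 27.2 and 34.0 times in females and 33.5, 49.8 and 43.6 times in males, where female library 3 lay just above male library 1. miR-344d-3p ranged from 74.5 in female library 3 to 137 in male library 2 and overlapped widely. miR-344e-3p was at 12.6, 8.87 and 7.63 in females and at 4.21, 10.9 and 3.66 in males, with male library 2 among the females.

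**Figure D3:**
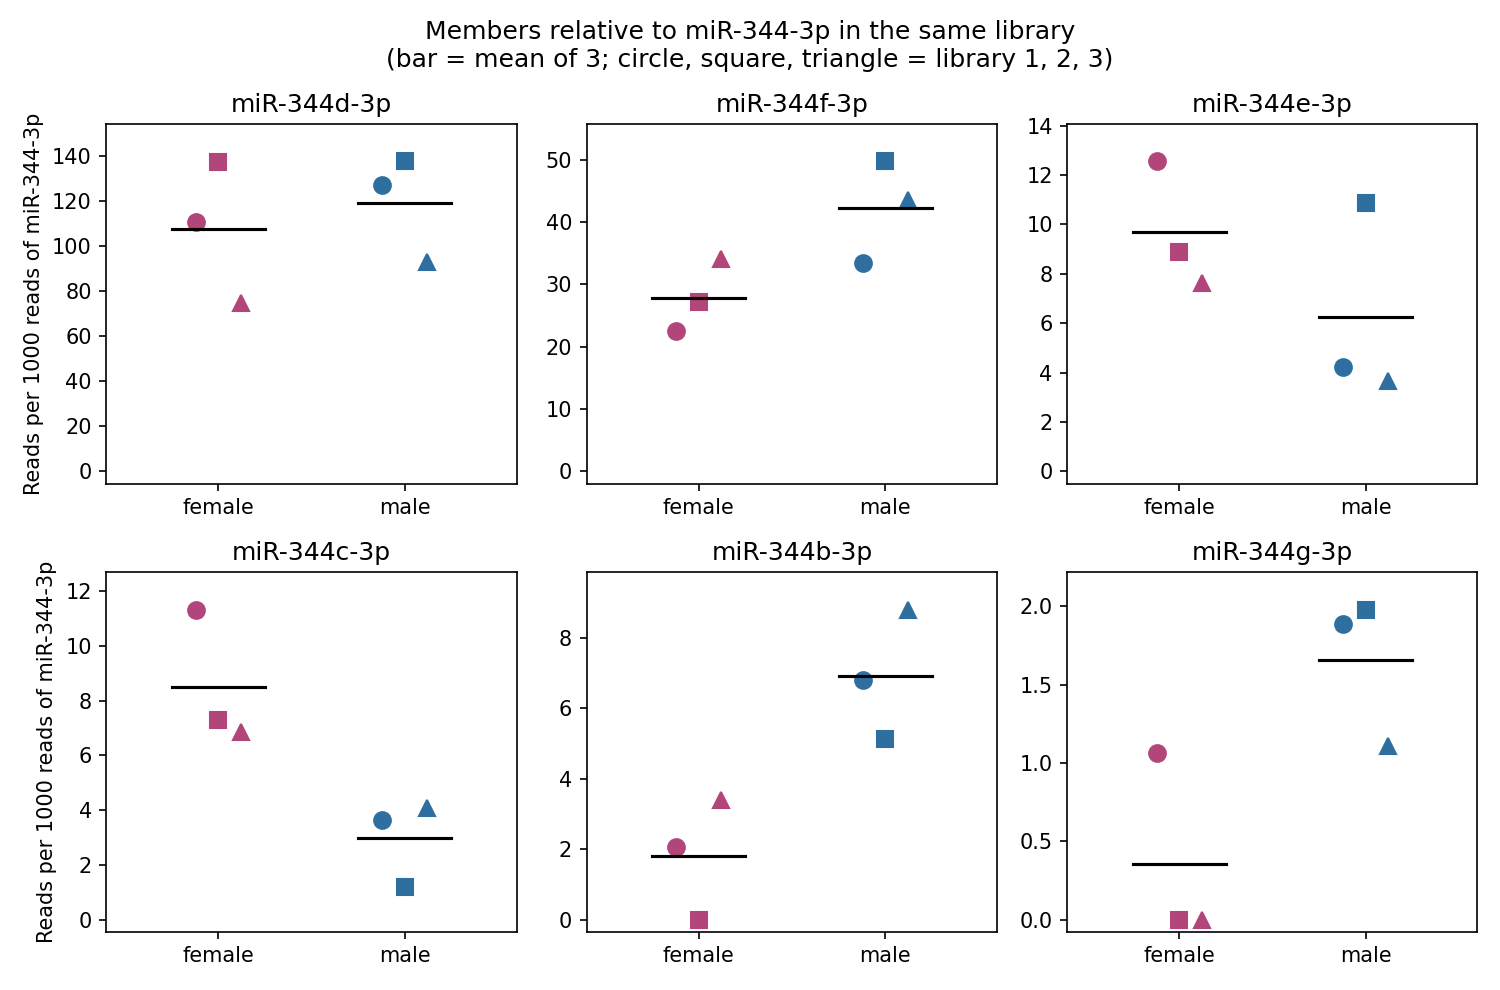
Reads of 6 members per 1000 reads of miR-344-3p in the same library (y axes, linear from 0 with a narrow margin below) for the 3 female and 3 male libraries, with the mean of each sex as a bar. The miR-344c-3p values are 6.86 to 11.3 in females and 1.203 to 4.09 in males. miR-344b-3p (0 to 3.39 against 5.13 to 8.81) and miR-344g-3p (0 to 1.07 against 1.11 to 1.98) are separate with males higher, and the other 3 members overlap.

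**Figure D4:**
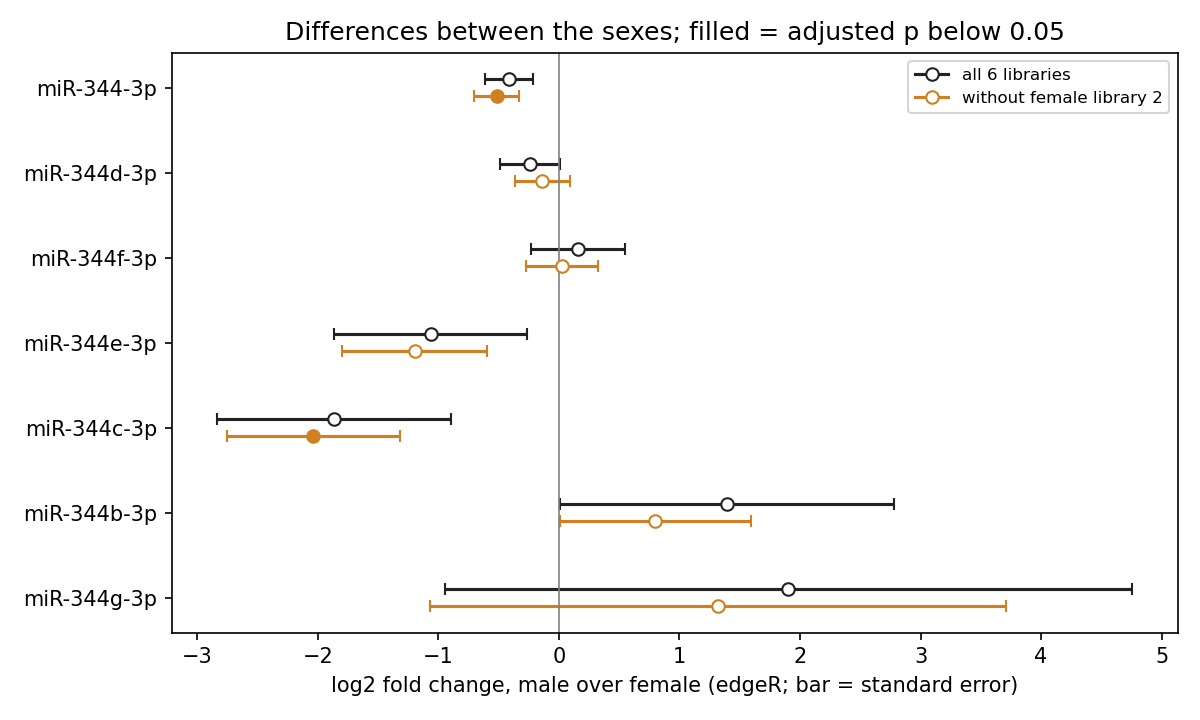
Log2 fold change, male over female, with its standard error from edgeR (x axis) for 7 members, with all 6 libraries (black) and without female library 2 (orange). Filled symbols have an adjusted p below 0.05. miR-344h-3p is not drawn. miR-344-3p and miR-344c-3p are filled only without female library 2, at -0.52 and -2.04.

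The summed level of the 8 arms was 1029.8, 863.2 and 1307 CPM in female libraries 1, 2 and 3 and 868.6, 776.6 and 1015 CPM in male libraries 1, 2 and 3, or 1067 ± 224 CPM (SD, n = 3) in females and 886.6 ± 120 CPM (SD, n = 3) in males, with overlap. Among the 548 miRNAs outside the family with a mean of at least 100 reads, those whose log2 CPM over the 6 libraries followed this sum most closely were miR-17-5p (Pearson's r = 0.97), miR-30a-5p (0.96), miR-30e-3p (0.96), miR-380-5p (0.95) and miR-653-5p (0.95). They were picked as the highest of 548 over 6 libraries that share their totals, and they are given as a description.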

How the data were processed

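Small RNA-seq of 6 libraries was used, 3 female and 3 male, with groups and replicate numbers from the sample titles. Per the labels and the study's methods, the authors trimmed adaptors with cutadapt (1.15), filtered reads with FastQC, mapped them with Bowtie (1.2.1) to miRBase sequences and mm9, and quantified known miRNAs with miRDeep2. The deposited values are raw read counts per mature miRNA, not normalized. How reads that match several family members were assigned is not given in the sources used here. Depth was 14802675 to 59362011 reads.

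Analyses used R 4.3.3 with edgeR 4.0.16 (quasi-likelihood test, legacy estimator, TMM) and DESeq2 1.42.0, and Python 3.11.15. miRNAs with fewer than 10 reads in all were left out, and the adjusted p threshold was 0.05. Each edgeR standard error was obtained by dividing the size of the log2 change by the square root of F. RUVr was written out from deviance residuals. Intervals are 95% exact binomial. Neighbouring levels were compared on log2(CPM + 0.1). Procedures were tested on simulated data. Members, lists and tests were chosen with earlier results of these data known. Named miRNAs were all rows of the family, fixed tissue markers, and the 5 with the highest Pearson correlation to the summed arms on log2(CPM + 1). Alternatives covered scaling, filters, DESeq2, RUVr, a replicate block, equal rows and each library left out. A newer edgeR estimator and an offset for GC content were added after the data were seen.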

Additional observations from a re-analysis of the deposited data

How the results depend on the processing

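The count of 3p arms past the threshold was 0 with all 6 libraries, and also in DESeq2 and with library size or upper quartile scaling. It was also 0 in edgeR with 1 RUVr factor, without a filter, with the newer edgeR estimator and with the GC offset. Requiring 10 or more reads in each library, which left 5 arms, gave 0 as well. Entering equal counts once could not change the fit, because the repeated rows had fewer than 10 reads in all. The count was 1 with 1 RUVr factor in DESeq2 (miR-344b-3p), and between 0 and 2 with each library left out, 2 without female library 2. With the replicate block the count was 0. Same-numbered libraries correlated at -0.05, -0.01 and 0.05 in their deviations from the sex means, so the numbers were not treated as pairs. Among all 1120 miRNAs tested the block gave 92 calls in place of 95. Library size gave 89, upper quartile scaling 91, DESeq2 129, the newer estimator 114 and the GC offset 76, also of 1120. Without a filter 104 of 1163 were called, and with 10 or more reads in each library 97 of 550. Leaving out a library gave 30 of 1097 when it was male library 1 and up to 203 of 1110 when it was female library 2. With 1 RUVr factor 147 of 1120 were called in edgeR and 226 of 1120 in DESeq2. With so few arms in the family, a count of 0 is not read as a result about it. miR-344-5p passed with 1 RUVr factor in edgeR (log2 fold change 4.74, adjusted p = 0.0448) and DESeq2 (10.5, adjusted p = 0.00048), on reads from 2 libraries. Direction reversed for miR-344f-3p without male library 3 (-0.0017, the lowest of a range up to 0.54 over libraries left out) and with the GC offset (-0.35), and for miR-344d-3-5p without male library 2 (-5.46, range up to 6.94). The cause was not tested. The limit of the 5p share of miR-344c in the added female reads rose from 0.401% to 0.691% without female library 2, an alternative chosen after the data were seen. The log2 ratio of the summed arms, male over female, was -0.27 on library totals, -0.39 with TMM and -0.40 to -0.09 with each library left out. A pseudocount of 0.5 CPM left 0 neighbour pairs past the threshold, and with 5 libraries the exact test cannot go below 0.0625, so it was not run. At the depth of female library 1, 3 counts are 0.203 CPM.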
